A study of Danio rerio with 4 samples.

Results

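The macrophage and leukocyte genes followed here are 10 zebrafish genes chosen by symbol: cd74a, cd74b, csf1ra, mpeg1.1, lcp1, coro1a, marco, mpx, lyz and spi1b. Symbols were matched without regard to case to the Ensembl identifiers of the gene count table, and 7 of the 10 had a row among 31953 rows in all. The rows for lcp1 and coro1a carry the symbols LCP1 and CORO1A. The genes mpeg1.1, mpx and spi1b had no row under these symbols and count as not measured.

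The study compared pools of whole zebrafish larvae at 5 days after fertilisation (120 h), 2 libraries from uhrf1(hi272) mutants and 2 from siblings of normal appearance. Uhrf1 is the chromatin protein that guides the maintenance DNA methyltransferase Dnmt1 to freshly copied DNA. Sorting was by appearance, so the genotype of each sibling is not given. The sibling libraries also bear the name ABNYU in the labels, which is not explained there. Each pool held between 10 and 20 larvae, drawn from 2 clutches, and the labels do not tie a library to a clutch, so the p-values below measure the spread between these libraries. Total RNA was sequenced after removal of ribosomal RNA as 75 bp reads.

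Macrophages and neutrophils are the leukocytes that patrol a zebrafish larva, and the thymus is only starting to produce T cells at this age. Macrophages depend on the receptor Csf1r, which binds the ligands Csf1 and Il34. Cells that present antigen load peptides onto class II molecules with the help of the invariant chain Cd74, and the transactivator Ciita switches class II genes on. Lcp1 and Coro1a organise actin in all leukocytes, Marco is a scavenger receptor of macrophages, and lyz and mpx encode lysozyme C and the granule enzyme myeloperoxidase. Spi1b, also called Pu.1, is a transcription factor of the myeloid lineage, and mpeg1.1 encodes a pore-forming protein of macrophages.

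The libraries differed far beyond the leukocyte genes, and those labelled sibling did not show the tissue makeup of a whole larva. The mutant libraries held 571978 and 564941 gene reads, against 613370 and 812167 for the siblings. A list of 21 hepatocyte markers took 24.6% and 19.2% of gene reads in the siblings and 0.642% and 0.371% in the mutants. Skeletal muscle markers took 0.0264% and 0.0127% in the siblings against 6.04% and 5.42% in the mutants, and the 11 neuronal markers had 1 and 8 reads in the siblings against 521 and 499 in the mutants. Both sibling libraries share this makeup, so no result could be recomputed without it. No difference between the groups below, in cd74a, cd74b, csf1ra or other genes, can be told apart from this difference in makeup. UHRF1 itself had 7 and 9 mutant reads against 2 and 17 sibling reads, ranges that overlap. In bulk RNA, fewer cells of a type and less RNA per cell cannot be told apart.

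**Figure D1:**
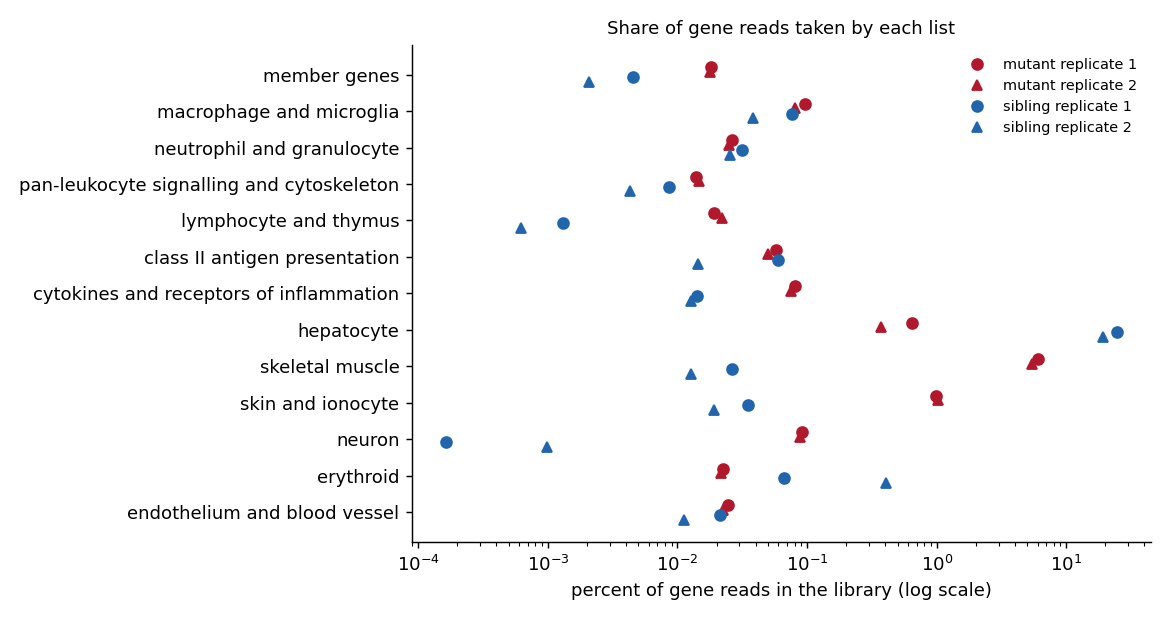
Percent of gene reads taken by the member genes and by each marker list (log axis) in the 4 libraries, red for mutants and blue for siblings. Hepatocyte markers hold 19.2% or more of the sibling reads and under 1% of the mutant reads, and muscle, skin and neuronal markers lie the other way.

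Depth limited the leukocyte genes throughout. All 7 together had 104 and 101 mutant reads against 28 and 17 sibling reads. As a share of gene reads the mutant libraries stood at 0.0182% (Wilson 95% interval 0.0150% to 0.0220%) and 0.0179% (0.0147% to 0.0217%). Sibling replicate 1 stood at 0.00457% (0.00316% to 0.00660%) and sibling replicate 2 at 0.00209% (0.00131% to 0.00335%). Such intervals cover counting error only. Reads were also expressed as CPM after TMM scaling, a method that matches libraries on the bulk of their genes. CPM here are per 1000000 scaled reads of the genes that passed the filter on low counts. A single read was worth 1.08 and 1.07 CPM in the mutant libraries and 2.70 and 2.76 CPM in the sibling libraries. Summed over the 7 genes, CPM were 113 and 108 in the mutants against 75.7 and 46.9 in the siblings. The gap between the groups is thus smaller in CPM than as a share of gene reads. Only cd74a, cd74b and csf1ra passed the filter on low counts. They passed through the mutant libraries alone, so their count of calls is no support for a direction. Their reads lie mostly in the mutants, so they reached the test through that group. The quasi-likelihood test of edgeR called all 3 higher in mutants at a Benjamini-Hochberg adjusted p under 0.05. Of the 8133 tested genes it called 61.0% in either direction, 35.2% as higher and 25.9% as lower. LCP1, CORO1A, marco and lyz did not pass the filter.

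**Figure D2:**
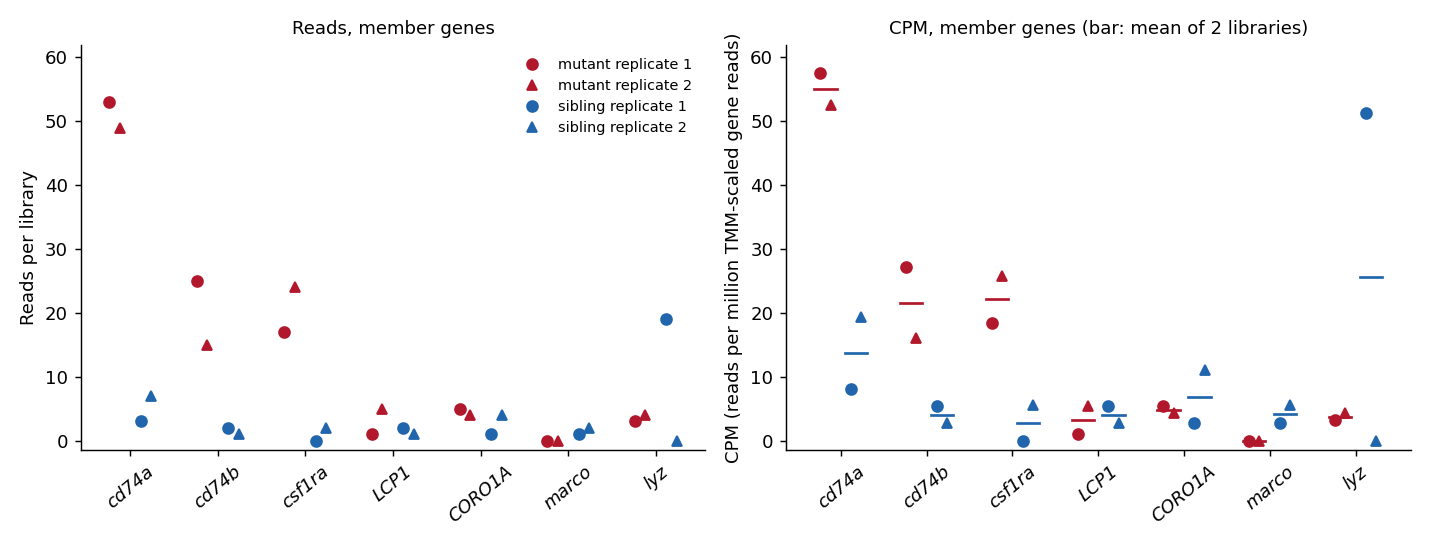
Reads per library (left) and CPM (right) of the 7 measured genes, with circles for replicate 1, triangles for replicate 2, and a bar at the mean of the 2 libraries. The cd74a, cd74b and csf1ra points of the mutants lie above those of the siblings, and the lyz points of the siblings lie far apart, at 19 and 0 reads.

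The invariant chain genes were higher in the mutant libraries. cd74a (ENSDARG00000009087) had 53 and 49 mutant reads against 3 and 7 sibling reads. Both mutant libraries lay above both sibling libraries, at 55.0 ± 3.47 CPM against 13.7 ± 7.93 CPM (mean ± SD, n = 2 per group). On the log2 scale the gene rose by 1.99 ± 0.46 (edgeR, Benjamini-Hochberg adjusted p = 0.00214). The paralog cd74b (ENSDARG00000036628) had 25 and 15 mutant reads against 2 and 1 sibling reads, and again the groups did not overlap. Its CPM were 21.6 ± 7.79 and 4.08 ± 1.87, a rise of 2.34 ± 0.72 (edgeR, adjusted p = 0.0122). With so few sibling reads its ratio of summed reads was 5.27, with an exact 95% counting interval of 1.68 to 26.6. Groups that do not overlap were common here, in 80.9% of tested genes. The part of the tissue makeup of the libraries in the cd74a and cd74b results was not tested.

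The scale decides how large these rises are. Relative to all reads of the tested genes, with no TMM factor, cd74a rose by 3.70 and cd74b by 3.99 on the log2 scale. Tested genes as a whole had a median of 2.17 there. With TMM this median was 0.48, so cd74a stood 1.51 above it on the TMM scale and 1.53 with total counts, and cd74b 1.86 and 1.82. Leaving out either mutant library ended the call of cd74a (adjusted p = 0.110 without mutant replicate 1 and 0.0662 without mutant replicate 2), with log2 fold changes of 2.03 and 2.18. The call of cd74b was lost without any one of the 4 libraries (adjusted p = 0.0863 to 0.232). A lone library in a group takes its spread from the other pair. The sibling pair differed more than the mutant pair, at chi-square per degree of freedom of 14.9 against 1.18 over genes with a read. Fits without a mutant library thus rest on the wider spread for every gene, and calls lost there are not particular to these genes.

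The proportion of cd74a to cd74b could not be told apart between libraries at this depth. Of the reads of both genes, cd74a took 67.9% (Wilson 95% interval 57.0% to 77.3%) and 76.6% (64.9% to 85.3%) in the mutants. In the siblings it took 60.0% (23.1% to 88.2%) of 5 reads and 87.5% (52.9% to 97.8%) of 8 reads. The intervals of all 4 libraries overlap, and those of the siblings are wide. How reads shared by these paralogs were assigned is not given in the sources used here.

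Among other genes of antigen presentation some rose and 1 fell. Those that rose, ciita, b2m and TAP1, passed the count filter through the mutant libraries alone, so their calls are no support for a direction. The gene that fell, ctsla, met the filter in both groups. The class II transactivator ciita had 11 and 13 mutant reads against 1 and 0 sibling reads, a rise of 3.08 ± 0.84 on the log2 scale (edgeR, adjusted p = 0.00647). Its ratio of summed reads was 9.48, with a counting interval of 1.55 to 390. The class I subunit b2m had 47 and 52 reads against 4 and 2, a rise of 2.68 ± 0.49 (adjusted p = 0.000479), and the peptide transporter TAP1 rose by 2.16 ± 0.56 (adjusted p = 0.00494) from 2 and 3 sibling reads to 26 and 32. By contrast the lysosomal protease ctsla fell by 1.099 ± 0.37 (adjusted p = 0.0193), with 146 and 114 mutant reads against 151 and 70 sibling reads. That direction holds on the TMM scale, and ctsla was at 0.54 with total-count scaling and 1.48 with ribosomal protein scaling. Legumain (LGMN), another lysosomal protease, and the class II promoter-binding factors rfx5 and RFXAP did not pass the test, and the class II gene mhc2dab had 0 reads in all 4 libraries. In the class II list as a whole, which also holds the class I subunit b2m, 2 of 6 tested genes rose and 1 fell. Those that rose were ciita and b2m. Of all tested genes 35.2% were called higher and 25.9% lower. The median log2 fold change of the class II list was -0.29 against 0.48 for all tested genes. The call of ciita was lost without either sibling library (adjusted p = 0.0559 and 0.112), with DESeq2 (0.132), without the count filter (0.0743) and with the replicate block (0.0707), and without either mutant library the gene was not tested. Without mutant replicate 1, b2m and TAP1 were not called (adjusted p = 0.0567 and 0.0873), TAP1 was not called without mutant replicate 2 or sibling replicate 1 either (0.107 and 0.0626), and ctsla was called without sibling replicate 2 alone (0.00144, and 0.235 to 0.353 without each of the others).

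The receptor gene csf1ra (ENSDARG00000102986) was also higher in the mutant libraries. It had 17 and 24 mutant reads against 0 and 2 sibling reads, and the groups did not overlap. Its CPM were 22.1 ± 5.17 and 2.76 ± 3.90 (mean ± SD, n = 2), a rise of 2.93 ± 0.82 (edgeR, adjusted p = 0.00726). The ratio of summed reads was 8.10, with a counting interval of 2.103 to 69.1. With total-count scaling the rise was 4.56. The call was lost without mutant replicate 1, mutant replicate 2 or sibling replicate 1 (adjusted p = 0.154, 0.213 and 0.102). Without sibling replicate 2, where no sibling read remains, it was kept (adjusted p = 0.0152).

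Of the ligands and the second receptor of this pathway, il34 was called higher. It passed the count filter through the mutant libraries alone, so this call is no support for a direction. It had 18 and 17 mutant reads against 1 and 0 sibling reads, a rise of 3.61 ± 0.87 (edgeR, adjusted p = 0.00298) with a ratio of summed reads of 13.8 and a counting interval of 2.32 to 561. The call of il34 was lost without either mutant library (adjusted p = 0.154 and 0.132) and with DESeq2 (0.0611). The ligand csf1a had 0 and 2 reads in the mutants and csf1b 3 and 2, and neither had a sibling read. The paralogous receptor csf1rb had 5 and 10 mutant reads against 4 and 2 sibling reads and did not pass the count filter. In CPM the groups of csf1rb overlap. Of the 5 ligand and receptor genes, 3 had too few reads to test.

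In zebrafish csf1ra is also active in xanthophores, the yellow pigment cells, and reads of pigment cell genes were counted beside it. Of 14 such genes, chosen after values were seen, 11 had a row and 4 were tested. The pteridine enzyme gch2 had 16 and 19 reads in the mutants, and the melanin genes pmela and DCT had 46 and 55 and 15 and 22. None of these 3 had a read in either sibling library. The oxidase aox5, another xanthophore gene, had 10 and 9 mutant reads against 3 and 0 sibling reads. XDH, which the liver also uses, lay the other way, with 7 and 3 mutant reads against 179 and 162 sibling reads. The pteridine gene PTS had 5 and 9 mutant reads against 13 and 7 sibling reads, ranges that overlap. In CPM it was lower in the mutants, at 5.42 and 9.66 against 35.1 and 19.3. Relative to all gene reads its ratio of summed reads was 0.878, with a counting interval of 0.410 to 1.83. Summed over the 11 genes there were 124 and 154 mutant reads against 196 and 170 sibling reads, most of the latter from XDH. The part of pigment cells in the csf1ra result was not tested.

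On the RefSeq assembly GRCz12tu, csf1ra and cd74a lie close together on the same chromosome with 3 genes between them. Of these, slc35a4 had 12 and 11 mutant reads against 3 and 6 sibling reads, HMGXB3 had 13 and 15 against 4 and 1, and si:dkey-201i24.3 had 0 reads in all libraries. In CPM, slc35a4 was at 12.4 ± 0.857 in the mutants against 12.3 ± 5.98 in the siblings, ranges that overlap. HMGXB3 was at 15.1 ± 1.41 and 6.79 ± 5.69 CPM and did not pass the test (edgeR, log2 fold change 1.12, adjusted p = 0.136).

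The actin genes that all leukocytes use showed no detectable difference at this depth. LCP1 (ENSDARG00000023188), the actin-bundling L-plastin, had 1 and 5 mutant reads against 2 and 1 sibling reads. CORO1A (ENSDARG00000054610), a coronin, had 5 and 4 mutant reads against 1 and 4 sibling reads. The groups overlap for both genes. The ratio of summed reads on the TMM scale was 0.790 for LCP1, with a counting interval of 0.169 to 4.88, and 0.711 for CORO1A, with 0.214 to 2.70. Relative to all gene reads the ratios were 2.51 (0.536 to 15.5) and 2.26 (0.679 to 8.57), so the side of 1 on which they fall depends on the scale. In a fit without the count filter their log2 fold changes were -0.00473 ± 1.05 and -0.15 ± 0.73 (edgeR, adjusted p = 0.998 and 0.888). With ribosomal protein scaling in that fit CORO1A was at 2.13 (adjusted p = 0.0386), where 6444 of 8133 genes rose under the count filter.

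Other pan-leukocyte genes were as sparse. Of 42 listed genes of leukocyte signalling and cytoskeleton, 30 had a row and 1 was tested, ARPC1B, a subunit of the Arp2/3 actin complex. It had 12 and 10 mutant reads against 9 and 6 sibling reads and did not pass (log2 fold change -0.78 ± 0.49, edgeR adjusted p = 0.187). The leukocyte common antigen ptprc had 0 and 3 reads against 2 and 0, and the GTPase rac2 had 6 and 5 against 2 and 2. The list summed to 79 and 83 mutant reads against 53 and 35 sibling reads. That is 0.0138% and 0.0147% of gene reads against 0.00864% and 0.00431%, and in CPM it is 85.7 and 89.1 against 143 and 96.6. The mutant libraries are thus all higher on the former scale and all lower on the latter.

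The scavenger receptor marco (ENSDARG00000059294) had 0 reads in both mutant libraries and 1 and 2 in the siblings. At a count of 0 the true level may reach 3.25 and 3.22 CPM in the mutant libraries. The siblings were at 2.70 and 5.52 CPM, so the size of a fold cannot be given at this depth. The counting interval of the ratio of summed reads was 0 to 0.956 on the TMM scale and 0 to 3.03 relative to all gene reads. In the fit without the count filter the log2 fold change was -4.25 ± 1.48 (edgeR, adjusted p = 0.174). That value stands against no mutant read and so depends on the prior count.

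Macrophage genes beyond csf1ra did not move one way. Of 41 listed macrophage and microglia genes 31 symbols had a row. Among the 7 tested rows 1 was higher and 2 lower, where 35.2% of all tested genes were higher and 25.9% lower. The list median was -0.53, against 0.48 for all tested genes. The listed gene called higher was il34, which passed the count filter through the mutant libraries alone. Neurons and skin cells make it in mammals. Markers of neurons and skin rose in the same libraries, and their part in the il34 result was not tested. The lysosomal protease CTSZ fell by 2.48 ± 0.50 (edgeR, adjusted p = 0.00136), with 27 and 11 mutant reads against 60 and 25 sibling reads. The apolipoprotein apoeb fell by 1.04 ± 0.32 (adjusted p = 0.0135) with 359 and 280 reads against 307 and 213. These directions depend on the scale, since CTSZ was at 0.0939 and apoeb at 1.57 with ribosomal protein scaling, and apoeb was at 0.63 with total counts. Both were called lower without sibling replicate 2 (adjusted p = 0.00145 and 0.00202) and not without any other library (0.0606 to 0.285). Hepatocyte markers fell in the same libraries, and the part of liver RNA in the CTSZ, apoeb and ctsla results was not tested. SLC37A2, a sugar phosphate transporter, had separate groups but did not pass (edgeR, adjusted p = 0.0650). Below the count filter, a row of the listed gene MFAP4 had 1 and 0 mutant reads against 38 and 13 sibling reads. In the fit without the filter that row was at -6.27 ± 1.09 (edgeR, adjusted p = 0.0413), a value that rests on 1 mutant read. Of 25 listed rows in that fit, il34 alone was called higher (adjusted p = 0.0485) and this MFAP4 row alone lower. IRF8, a transcription factor that macrophages need, had 5 reads in each mutant library and 0 and 1 in the siblings, and P2RY12, ccl34a.4 and c1qb, which mark microglia and macrophages, had 0 reads in all 4 libraries.

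Rows with symbols related to those of the missing members were read as well. A single row bears the symbol SPI1, with 0 and 1 mutant reads against 0 and 3 sibling reads, and spi1a had 2 and 4 against 3 and 0. MPEG1 is the symbol of 3 rows, of which 1 had 6 and 14 mutant reads against 2 and 0 sibling reads, 1 had 1 and 1 against 2 and 0, and 1 had none. Which of these rows is spi1b or mpeg1.1 is not paired in the files used here, so they were not counted as members.

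The lysozyme gene lyz (ENSDARG00000057789) differed between the sibling libraries more than between the groups. It had 3 and 4 mutant reads against 19 and 0 sibling reads, or 3.25 and 4.29 CPM against 51.4 and 0 CPM. The mutant values lie between the sibling values. In the fit without the count filter the log2 fold change was -2.39 ± 1.52 (edgeR, adjusted p = 0.348). Without sibling replicate 2, lyz passed the count filter and was called lower at -3.68 ± 0.53 (adjusted p = 0.00181). Without sibling replicate 1, where no sibling read remains, the unfiltered value turned to 4.62 (adjusted p = 0.266). Erythroid markers also differed between the sibling libraries, with 406 and 3308 reads, and this difference is opposite to that of lyz. Its part in the lyz values was not tested.

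Neutrophil and granulocyte genes went both ways, as tested genes as a whole did. Of 32 listed symbols 23 had a row, and 2 of 7 tested rows rose and 3 fell. Among all tested genes 35.2% were called higher and 25.9% lower. The list median was -0.39, against 0.48 for all tested genes. The 2 listed rows that rose passed the count filter through the mutant libraries alone. Of the listed rows that fell, srgn and a LECT2 row passed it through the sibling libraries alone. Such calls are no support for a direction. The matrix metalloprotease MMP9, which leukocytes and injured epithelia release, had 24 and 31 mutant reads against 3 and 0 sibling reads. It rose by 2.80 ± 0.74 (edgeR, adjusted p = 0.00513), with a ratio of summed reads of 7.24 and a counting interval of 2.35 to 36.2. The transcription factor CEBPB fell by 2.00 ± 0.37 (adjusted p = 0.000487), and srgn, the proteoglycan core protein of secretory granules, fell by 2.27 ± 0.45 (adjusted p = 0.000813). Both were above 0 with ribosomal protein scaling, at 0.68 and 0.38. The calls of MMP9, CEBPB and srgn were lost without mutant replicate 1 (adjusted p = 0.155, 0.0618 and 0.0684) and without mutant replicate 2 (0.165, 0.0862 and 0.0721). LECT2 is the symbol of 2 rows. ENSDARG00000033227 had 4 and 2 mutant reads against 118 and 116 sibling reads and fell by 6.54 ± 0.45 (adjusted p = 9.65e-08), and ENSDARG00000090889 had 12 and 11 against 0 and 2 and rose by 2.11 ± 0.77 (adjusted p = 0.0307), a call lost without sibling replicate 1 (adjusted p = 0.285) and not tested without either mutant library. LECT2 is a secreted protein of the liver in mammals, and the hepatocyte markers fell in the same libraries, 21 of 21. The part of liver RNA in the LECT2, CEBPB and srgn results was not tested. Genes more particular to neutrophil granules and oxidase stayed under the filter, among them npsn with 4 and 4 reads against 6 and 3, and cybb with 6 and 6 against 3 and 0. So did the receptor gene CSF3R, with 1 and 2 against 0 and 1.

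The defining lymphocyte genes were at or near 0 reads. All 4 tested genes of the lymphocyte and thymus list were called higher, but each passed the count filter through the mutant libraries alone, so this count and the list median are no support for a direction. The transcription factors bcl11ba, TOX and GATA3 had 62, 48 and 30 reads over the mutant libraries and none in the siblings. Against a floor of 3 reads in each sibling library, bcl11ba was at least 4.08-fold, TOX at least 3.16-fold and GATA3 at least 1.97-fold higher in mean CPM. These factors also act in neurons and skin. Markers of neurons took 0.0911% and 0.0883% of mutant gene reads against 0.000163% and 0.000985% in the siblings. Those of skin took 0.994% and 1.01% against 0.0351% and 0.0191%. Called higher were 8 of 8 and 14 of 16 tested genes, against 35.2% of all. The neuronal markers passed the filter through the mutant libraries alone, so their count is no support for a direction. The part of those tissues in the values of bcl11ba, TOX and GATA3 was not tested. The other tested gene was TAP1, described above, which most cells use. The recombination genes RAG1 and RAG2 had 1 read each over all 4 libraries, lck had 3 and ZAP70 had 1, and cd8a had 0. The fitted list median was 6.74, or 1.85 with the 3 genes at their bound, against 0.48 for all tested genes, or 0.47 with such genes at their bound. Without mutant replicate 1 no call of bcl11ba, TOX or GATA3 remained (adjusted p = 0.0759, 0.149 and 0.132), and without sibling replicate 1 those of TOX and GATA3 were lost (0.0642 and 0.0740), as they were without the count filter (0.0665 and 0.0761). Without mutant replicate 2 GATA3 was not tested.

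Among cytokine receptor and NF-kappaB genes the calls all pointed to the mutants. But nfkb1, nfkb2, relb and nfkbiaa passed the count filter through the mutant libraries alone, so their calls are no support for a direction. The filter was met in both groups for il6st and for the inhibitor gene nfkbiab, which was not called. nfkbiab had 70 and 48 mutant reads against 18 and 18 sibling reads (log2 fold change 0.37 ± 0.36, edgeR adjusted p = 0.388). The subunit RELA was not called either (0.84 ± 0.55, edgeR adjusted p = 0.199). Of all tested genes 35.2% were called higher and 25.9% lower. Of 29 genes with a row 10 were tested, and 5 of these rose and 0 fell, at a median of 0.93, or 0.74 with nfkb1, which had no sibling read, at its bound. The subunits nfkb2 and relb rose by 1.84 ± 0.40 and 1.97 ± 0.49 (edgeR, adjusted p = 0.00151 and 0.00396), and the inhibitor nfkbiaa rose by 2.70 ± 0.61 (adjusted p = 0.00180). nfkb2 had 68 and 60 mutant reads against 6 and 8 sibling reads, relb 50 and 50 against 2 and 8, and nfkbiaa 30 and 38 against 1 and 3. The subunit nfkb1 had 10 and 13 reads and none in the siblings, at least 1.51-fold higher against the same floor, and was not called without the count filter (adjusted p = 0.0619). The signalling receptor il6st rose by 1.02 ± 0.34 (adjusted p = 0.0188), with 138 and 109 mutant reads against 23 and 25 sibling reads. The cytokines themselves were barely read. il1b and il6 had 1 and 3 reads in all, from mutant libraries alone, and tnfa had 0. These receptors and factors are used by most cell types. The calls of nfkb2, relb, nfkbiaa and il6st were lost without mutant replicate 1 (adjusted p = 0.0762 to 0.163), those of relb, nfkbiaa and il6st without mutant replicate 2 (0.0796 to 0.108), and those of nfkb1, nfkbiaa and il6st without sibling replicate 1 (0.0514 to 0.0748). nfkb1 was not tested without either mutant library.

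Over the 6 lists, with the members left out, 150 rows were found and 35 tested, of which 14 (40%) were higher, 6 (17.1%) lower and 15 not called. Among all tested genes 35.2% were higher and 25.9% lower, and the medians were 0.61 for the lists and 0.48 for all genes. The shares of the lists lie near those of all genes. Apart from il6st, the listed genes called higher passed the count filter through the mutant libraries alone. The share called higher is thus no support for a direction. With total-count scaling 26 listed genes were higher and 1, LECT2, lower, against 5585 and 1015 of all tested genes. DESeq2 called 9 higher and 4 lower, and edgeR without the count filter 7 and 4. Of the 115 rows under the filter, 27 had no read in any library, 32 had reads in mutants alone and 10 in siblings alone.

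**Figure D3:**
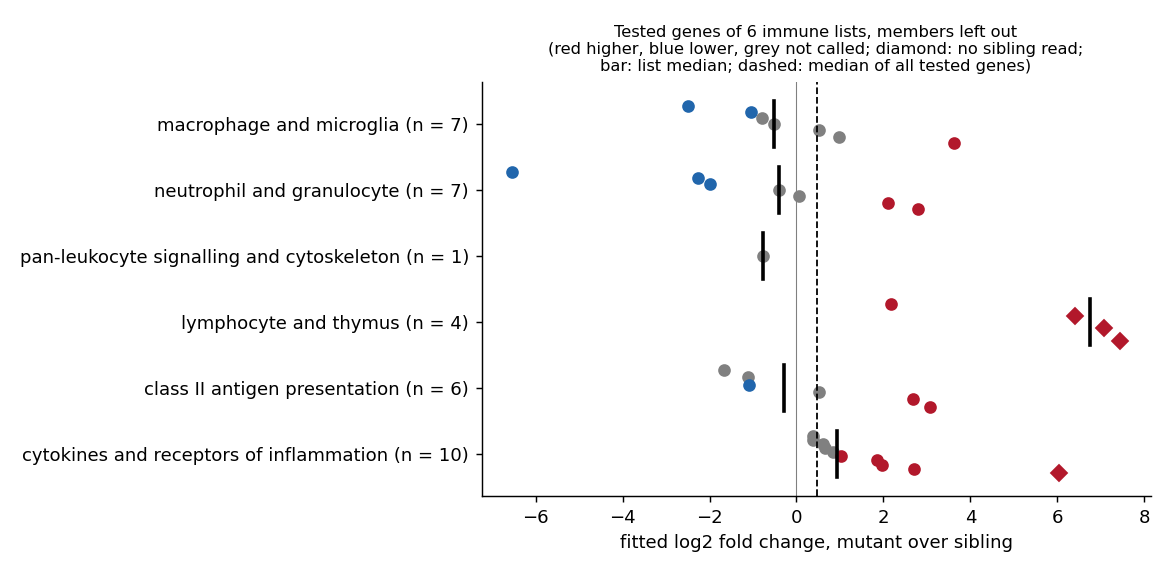
Fitted log2 fold changes of the tested genes of 6 immune lists, members left out, with the list median as a bar and the median of all tested genes (0.48) dashed. The tested genes of the lymphocyte list and the NF-kappaB genes that were called lie to the right. nfkbiab, at 0.37, lies left of the dashed line. Macrophage, neutrophil and class II lists spread to both sides of 0. The tested genes of the lymphocyte list and nfkb1, nfkb2, relb and nfkbiaa passed the count filter through the mutant libraries alone.

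The genes named here for profiles like the members were on none of the leukocyte lists. Likeness was the root mean square difference of centred log2(CPM + 1) values over the 4 libraries, among 4342 genes with a symbol and at least 60 reads. The 115 listed rows under the count filter had at most 52 reads and were not candidates. That no listed gene was among the nearest is thus no result about the members. For the summed reads of the members the nearest were zgc:158803, atp6v1e1b and ARHGAP5 (differences of 0.0264, 0.0330 and 0.0405). For cd74a they were mcf2l2, ACSBG2 and RAPGEF2 (0.0400, 0.0847 and 0.0968). For csf1ra they were RIMKLA, PHGDH and ADARB1 (0.202, 0.260 and 0.271). With 4 libraries in 2 groups, many genes share such a profile.

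Across the processing choices cd74a, cd74b and csf1ra stayed above 0 in every fit that was run, and the calls did not. DESeq2 called cd74a (adjusted p = 0.0246) but not cd74b (0.0908) or csf1ra (0.0601), and without the count filter the same held (0.0389, 0.0662 and 0.0829). The log2 fold change of csf1ra ranged from 2.00 without sibling replicate 1 to 7.05 without sibling replicate 2, the latter against no sibling read and so dependent on the prior count. The 3 genes lay above the median of all tested genes in each setting. They passed the count filter through the mutant libraries alone, so a place above 0 or above the median is no support for a direction.

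**Figure D4:**
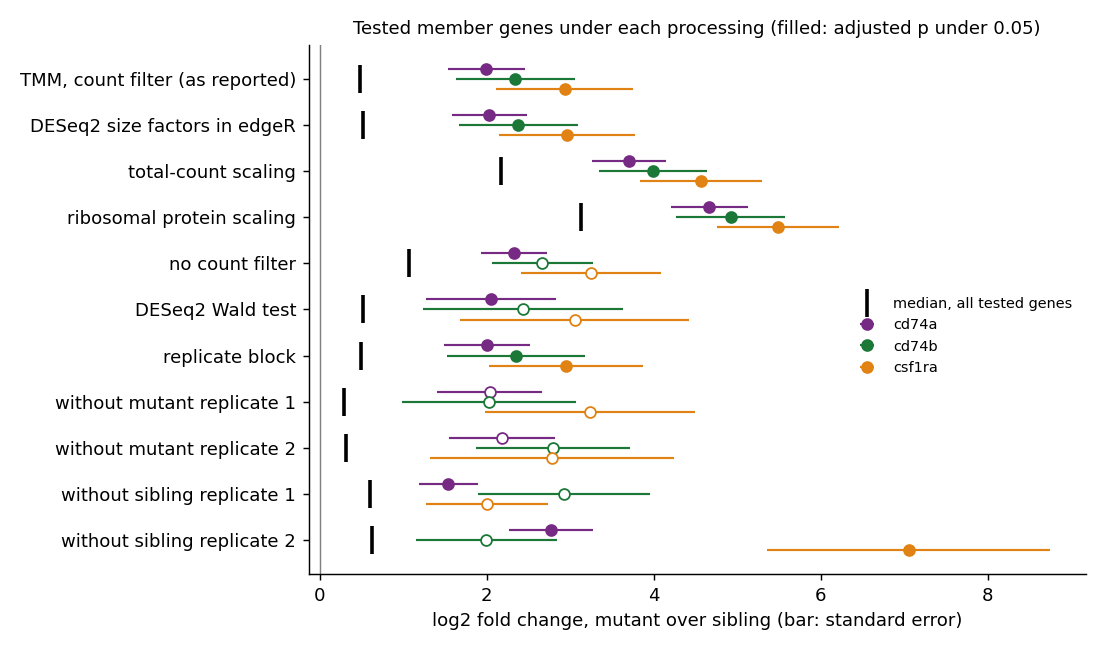
Log2 fold change with its standard error for cd74a, cd74b and csf1ra under each processing, filled where the adjusted p is under 0.05, with the median of all tested genes as a black tick. All points lie above 0 and above the tick of their setting, and open points mark lost calls.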

How the data were processed

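The authors deposited raw counts of reads per Ensembl gene, with a column for each library, per the file headers. The submitters' processing notes name TopHat2, HTSeq, DESeq2 and GRCz10 with no version. How strand and shared reads were handled is not given in the sources used here. Symbols were matched for 26121 of 31953 identifiers. Members and lists were chosen with earlier results of these data known. The main test was the edgeR 4.0.16 quasi-likelihood test (R 4.3.3, robust fit, filterByExpr by group, TMM scaling), and p-values were Benjamini-Hochberg adjusted over all 8133 tested genes at a threshold of 0.05. Fold changes are mutant over sibling, and each log2 fold change is given ± its standard error. Counting intervals are exact and conditional on the summed reads. With 2 libraries per group an exact permutation test cannot go below 0.333 (two-sided). The code was tested on simulated data. DESeq2 1.42.0 was an alternative. Named list genes are up to 5 tested genes per list by smallest p with separate groups, with others named after their values were seen. Replicate counts differed by chi-square per degree of freedom of 1.18 (mutants) and 14.9 (siblings) over genes with a read. Gene order on GRCz12tu (RefSeq) served only to name neighbouring genes, and repeat counts and sequences were not used here.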

Additional observations from a re-analysis of the deposited data

How the results depend on the processing

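The number of members called higher was 3 with TMM, DESeq2 size factors, total-count, ribosomal protein scaling and the replicate block, 1 with no count filter and 1 with the DESeq2 test, and from 0 to 2 with a library left out; members called lower ranged from 0 to 1 there. Listed genes called higher numbered 14, against 26 with total counts, 30 with ribosomal protein scaling, 7 with no count filter and 9 with DESeq2, and from 0 to 14 with a library left out. Those called lower numbered 6, against 1 with total counts and 1 with ribosomal protein scaling, and 1 to 10 with a library left out. All genes higher numbered 2861, against 5585, 6444, 1540 and 1706 in those settings and 340 to 2405 with a library left out. All genes lower numbered 2104, against 1015 with total counts and 650 with ribosomal protein scaling, and 924 to 2227 with a library left out. The replicate block gave 12 listed genes higher and 7 lower. Same-numbered libraries had deviations that correlated at 0.03 over tested genes, and the labels tie the numbers to no clutch, so they were not taken as pairs. The block brought lyz, in the unfiltered fit, to an adjusted p of 0.0493.

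Directions turned for the following log2 values. LCP1 was at 0.0315 with DESeq2 size factors, 1.24 with total counts, 2.21 with ribosomal protein scaling, and from -1.44 to 0.70 with a library left out (0.60 without sibling replicate 1). CORO1A was at 1.14, 2.13 and 1.11 with total counts, with ribosomal protein scaling and without sibling replicate 2, and at -0.76 without sibling replicate 1. The unfiltered lyz values ran from -3.39 without sibling replicate 2 to 4.62 without sibling replicate 1. With total counts apoeb was at 0.63, SLC37A2 at 0.91, ARPC1B at 0.92, ctsla at 0.54 and RFXAP at 0.58. With ribosomal protein scaling CTSZ was at 0.0939, apoeb at 1.57, SLC37A2 at 1.87, CEBPB at 0.68, srgn at 0.38, ARPC1B at 1.87, ctsla at 1.48 and RFXAP at 1.53. The median of all tested genes was 2.17 with total counts and 3.13 with ribosomal protein scaling. The lower calls of CTSZ, apoeb and ctsla were lost without the count filter (adjusted p = 0.109, 0.183 and 0.318), and those of apoeb and ctsla with DESeq2 (0.0640 and 0.114). Of the listed genes called, MMP9 and relb were also not called without the count filter (adjusted p = 0.0844 and 0.0669), TAP1 and il6st with DESeq2 (0.0520 and 0.0918), and the higher LECT2 row with either or with the replicate block (0.150, 0.229 and 0.153). The cause of the other shifts was not tested. Few reads limit each member, since 3 reads are 8.11 and 8.28 CPM in the siblings.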

Other observations

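Among listed genes below the count filter, a few held more reads than most, and they are named after their values were seen. The kinase gene PIK3CG, which signals in myeloid cells, had 2 and 5 mutant reads against 19 and 8 sibling reads. MFAP4, of the macrophage and microglia list, is the symbol of 6 rows. Of these, 1 had 1 and 0 mutant reads against 38 and 13 sibling reads, while the other rows had none. Without the count filter that row was called lower, at -6.27 ± 1.09 (edgeR, adjusted p = 0.0413). The transcription factor MYB, which blood stem cells use, had 15 and 9 mutant reads against 1 and 0 sibling reads. The interferon gamma receptor ifngr1 had 10 and 8 against none, and the chemokine cxcl12b, the ligand that guides Cxcr4-bearing cells, had 12 and 7 against 1 and 3. Others held more reads than ifngr1, among them ctss2.2 with 9 and 7 mutant reads against 4 and 6 sibling reads. Likewise tlr5b had 9 and 1 against 8 and 5, and MYD88 had 4 and 7 against 5 and 5. In CPM both mutant libraries lay below both sibling libraries for ctss2.2, tlr5b and MYD88. Groups that do not overlap in CPM were common, in 80.9% of tested genes. Relative to all gene reads, both mutant libraries lay above both sibling libraries for ctss2.2. Its ratio of summed reads was 2.01 there, with a counting interval of 0.856 to 4.95. The groups of tlr5b and MYD88 overlap on that scale. In the fit without the count filter ctss2.2, tlr5b and MYD88 were not called (edgeR, adjusted p = 0.675, 0.381 and 0.337).

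Endothelial markers, which share a developmental source with blood, held 0.0247% and 0.0223% of the mutant reads against 0.0212% and 0.0112% of the sibling reads. In summed CPM these endothelial markers lay the other way, at 153 and 135 in the mutants against 351 and 251 in the siblings. Of 5 tested, 1 was higher and 2 lower, with a median log2 fold change of -0.30. Among all tested genes 35.2% were higher and 25.9% lower, at a median of 0.48. Erythroid markers held 0.0226% and 0.0216% of the mutant reads against 0.0662% and 0.407% of the sibling reads, with 4 of 7 tested genes lower and 0 higher.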
